A study of Caenorhabditis elegans with 12 samples.

Results

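Whole-animal RNA of Caenorhabditis elegans was compared between the hrde-1(tm1200) mutant and N2, the standard laboratory wild type. The 4 libraries compared, of 12 in the series, were hrde-1(tm1200) whole RNA of generation 3 and of generation 4, and N2 whole RNA of generation 3 and of generation 4. All 4 came from young adult hermaphrodites kept at 23 C for 3 or 4 generations, and all held total RNA freed of ribosomal RNA with RNase H and DNA oligonucleotides, without poly(A) selection. The other 8 libraries were nuclear-enriched and cytoplasmic-enriched RNA of the same genotypes and generations. The members were the 1 kb windows of the genome with a mean coverage of at least 1 over the 4 whole-animal libraries, which were 43134 of the 100257 windows in the table (43.02%). Another 34475 windows were at the floor of 0.1, which stands for no reads, in all 4 libraries.

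HRDE-1 is an Argonaute protein of germ cell nuclei. It binds secondary small interfering RNAs that match a transcript and directs silencing and repressive histone methylation at the gene or transposon that makes it. In this worm it is known for carrying RNA interference to descendants, and its mutants lose fertility over generations at raised temperature. A whole animal holds both germline and soma, so RNA of the germline is measured here among that of all other tissues. In such bulk samples, fewer cells of a type and less RNA per cell cannot be told apart. The mutant was 1 allele. The 2 libraries of a genotype are of different generations, and whether they came from separate cultures is not stated in the labels. Each p-value sets the genotype difference against the spread between libraries of the same genotype and kind of RNA. That spread was estimated jointly with the nuclear and cytoplasmic libraries. It holds any difference between generations and may otherwise be technical.

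Marks in the table divide the windows by what is known of this pathway. GRTS marks 191 windows and GRH marks 215. In this field the letters refer to silencing of transcription and to heterochromatin that depend on germline nuclear RNA interference. The rule behind the marks is not stated in the labels or the table. They may rest on these same animals, so they give no independent support to a direction. The table's build is not given either. The annotation at hand runs past the table's end on chromosomes I and V, but not on II, III, IV or X. With the build unknown, windows are named by their position in the table. Levels of hrde-1 and of marker genes of the worm's tissues were not analysed here.

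Normalized coverage summed to 918066 and 942932 in hrde-1 of generations 3 and 4, and to 920960 and 979460 in N2. These sums follow the authors' normalization and do not show the depth. With the most frequent rise above the floor taken as 1 read, they correspond to 663530 and 753864 reads in hrde-1. In N2 they correspond to 652298 and 805512 reads. Smaller rises above the floor also occur. Reads below are such read equivalents. Across the tested windows, log2 coverage correlated between any pair of the 4 libraries (Pearson's r). It was 0.882 between the hrde-1 libraries and 0.890 between the N2 libraries, and between 0.872 and 0.885 in the 4 pairs of unlike genotype. These windows share their library, so r describes the libraries and is no test.

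A few stretches of the genome with little or no coverage in N2 whole RNA gave clear signal in hrde-1 whole RNA. Of the 43134 windows, 43 rose in hrde-1 (percent called 0.0997) and 1 fell (percent called 0.00232), by limma with Benjamini-Hochberg adjustment at a threshold of 0.05. The 43 windows held 0.206% and 0.208% of all coverage in the hrde-1 libraries, against 0.00414% and 0.00372% in the N2 libraries. In 24 of the 43 windows no N2 read was seen in either library. The median log2 difference over all tested windows was 0.00. The values had been normalized by the authors, so a shift shared by all windows could not be seen in them.

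The calls rested on both hrde-1 libraries and on a shared estimate of the spread. They numbered 8 higher without the generation 3 hrde-1 library (limma, lowest adjusted p = 0.0483) and 0 without that of generation 4 (limma, lowest adjusted p = 0.0576, with 2216 windows at an unadjusted p under 0.05). A fit of the 4 whole-animal libraries alone, with 2 residual degrees of freedom, called 67 higher and 6 lower over the same windows, but 0 once the variance had no trend and 0 once windows were chosen by all 12 libraries (limma, lowest adjusted p = 0.112 and 0.236, with 3008 and 2831 windows at an unadjusted p under 0.05). An exact permutation test of 2 against 2 libraries cannot give a p below 0.333, so the values of every region are given by library below.

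**Figure D1:**
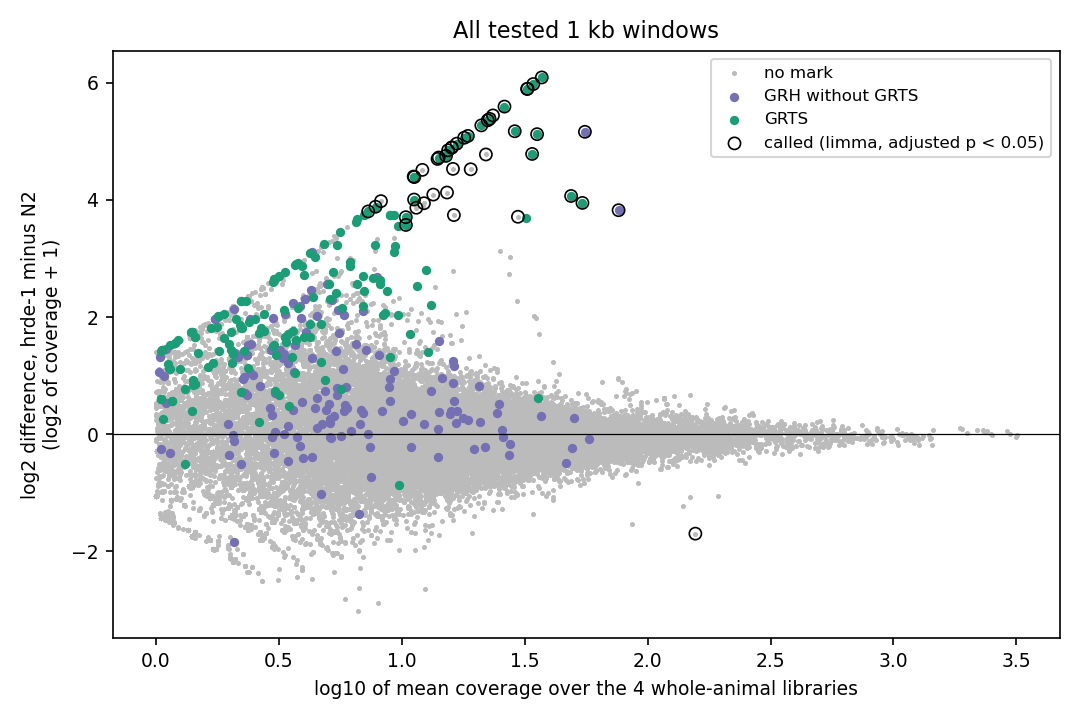
Each point is 1 tested window, with the log10 of its mean coverage over the 4 whole-animal libraries on the x axis and its log2 difference, hrde-1 minus N2, of coverage + 1 on the y axis. Circled windows passed limma's adjusted threshold: 43 lie above the line at 0 and 1 below it, and the windows with the highest coverage lie close to that line.

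The 43 windows formed 22 regions, named here by chromosome and a letter in order of position. Chromosome V, with 6986 of the tested windows, held 12 of the regions and 21 of the called windows (0.301% of its tested windows, against 0.0997% over all), IV held 4 regions and 12 windows, I and II held 2 regions each, and III and X held 1 each. Of the 22 regions, 12 held a GRTS window, 1 held a GRH window only and 9 held no mark. The 2 hrde-1 libraries read between 12.4 and 145.2 in every region, and the 2 N2 libraries between the floor and 9.87. The groups therefore did not overlap in any of them, which follows from their choice by the test.

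**Figure D2:**
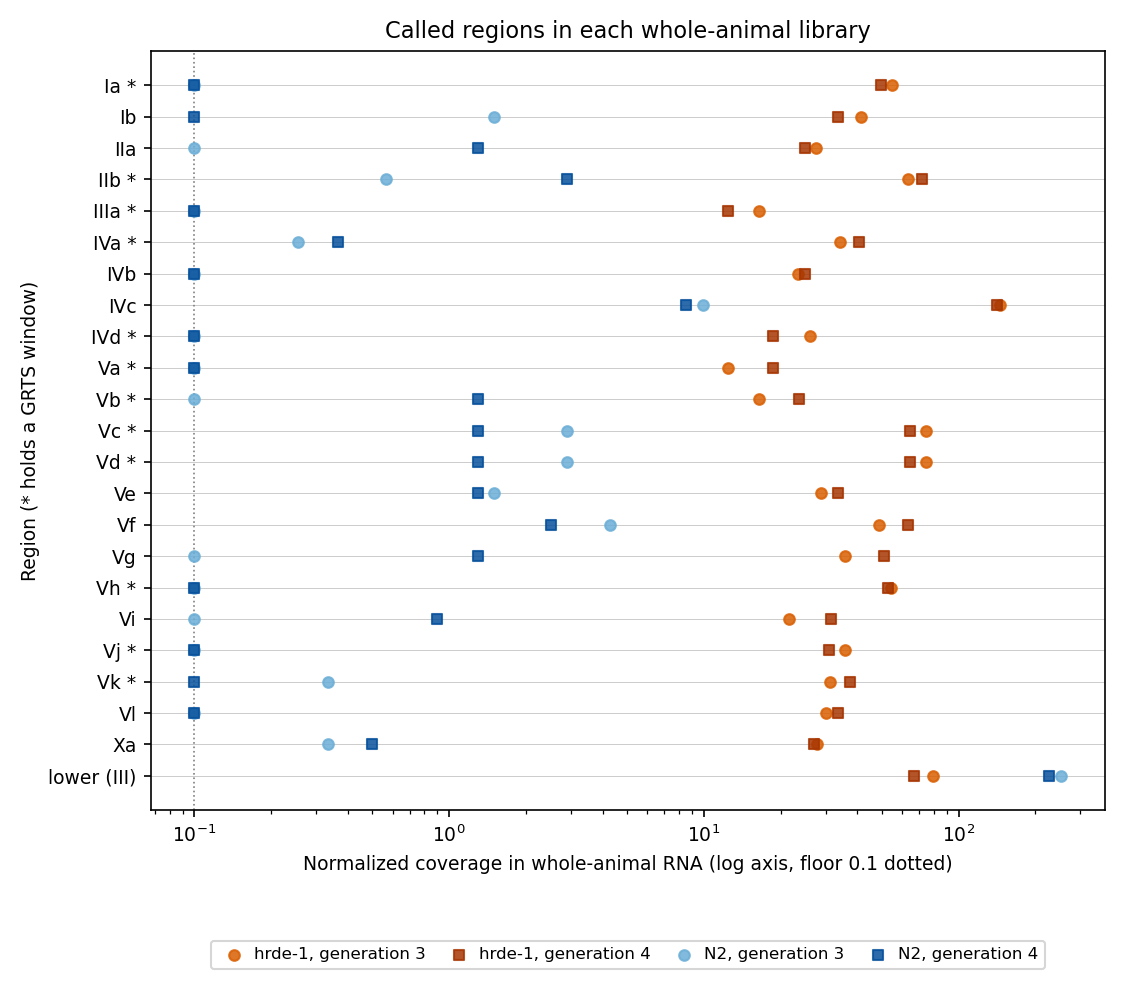
Mean coverage of each called region (rows, top to bottom in genome order, with an asterisk where the region holds a GRTS window) on a log axis, 1 point a library. In the 22 upper rows the hrde-1 points lie between 12.4 and 145.2 and the N2 points between the floor of 0.1 (dotted) and 9.87. In the lowest row, the window that fell, the order is turned round.

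Region IVa, on chromosome IV from 913001 to 922000, was the longest, with 9 called windows in a row, of which the last 7 carry GRTS. Its mean coverage was 34.3 and 40.6 in hrde-1, against 0.256 and 0.367 in N2. Over both libraries of a genotype this was 519 reads in hrde-1 and 3 in N2, a ratio of 173 (95% counting interval 59.0 to 844). The lowest adjusted p of a window in it was 0.000442 (limma), with a log2 difference of 5.44 (SE 0.53) in the window from 914001.

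The signal of IVa had sharp edges. The window just before it read 1.47 and 4.43 in hrde-1, against 1.5 and 0.10 in N2. The first called window then read 33.5 and 26.1 in hrde-1, against 0.80 and 0.70 in N2. The second, which like the first has no mark, read 46.6 and 47.1 in hrde-1 and 0.10 in both N2 libraries. The highest was the window from 920001, with 49.4 and 64.5 in hrde-1, against 0.10 and 1.30 in N2. Past the last called window, coverage was 1.47 and 2.57 in hrde-1 and at the floor in both N2 libraries. The marks thus cover all but the first 2 of the called windows.

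**Figure D3:**
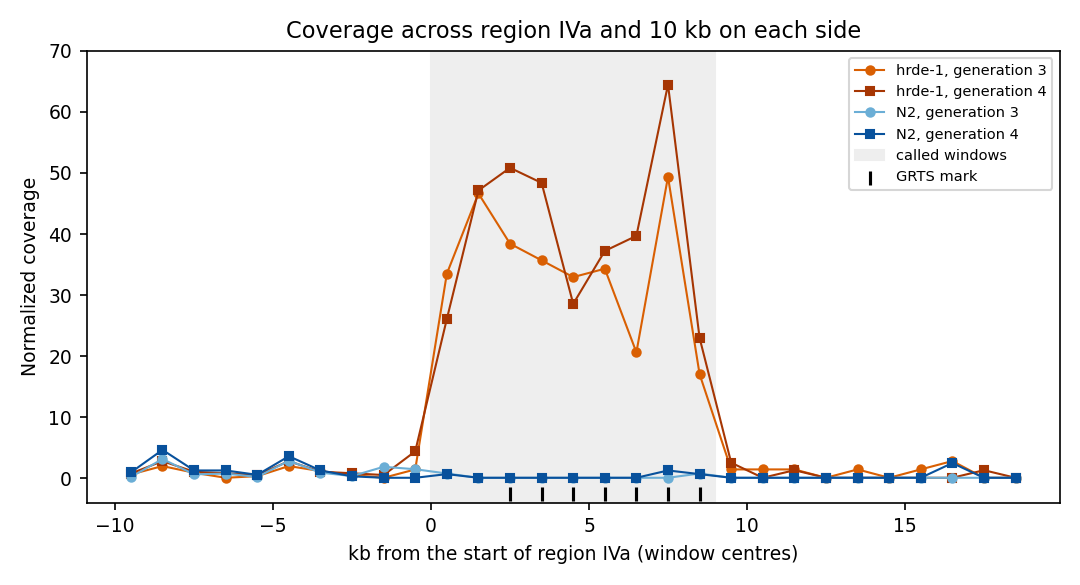
Coverage (y axis) in 1 kb windows across region IVa and 10 kb on each side (x axis, distance of the window's centre from the region's start), 1 line a library. Within the shaded called windows the hrde-1 lines lie between 17.1 and 64.5 and the N2 lines at or under 1.30, and ticks mark GRTS windows.

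Region Vh, on chromosome V from 17569001 to 17572000, held the window with the lowest adjusted p of all (limma, adjusted p = 0.00022, log2 difference 6.09, SE 0.52). Its 3 windows all carry GRTS. Mean coverage was 54.4 and 52.9 in hrde-1 and at the floor in both N2 libraries. With 247 reads in hrde-1 and none in N2, coverage was at least 82.4-fold higher, counted against 3 reads over the N2 group. Its middle window alone read 72.6 and 75.6 in hrde-1.

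Regions Vc, from 8829001 to 8832000, and Vd, from 8871001 to 8874000, are 42 kb apart on chromosome V and had nearly the same values. Region Vc read 74.4 and 64.3 in hrde-1, against 2.89 and 1.30 in N2. Region Vd read 74.4 and 64.2 in hrde-1, against 2.89 and 1.30 in N2. Both have 3 windows, all GRTS, and both lie in a run of 11 GRTS windows. Of 20 pairs of windows at this distance around them, 6 had identical values in all 4 whole-animal libraries, a comparison chosen after the values were seen. Reads of near-identical copies could have been placed in either or in both, so neither region's level is certain and the pair may hold 1 signal.

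Region IIb, on chromosome II from 13245001 to 13248000, carries both marks in places. Coverage was 63.1 and 71.6 in hrde-1, against 0.567 and 2.91 in N2, a ratio of 41.1 from 311 reads in hrde-1 and 8 in N2. The middle window, marked GRH, was the highest with 109.6 and 105.3 in hrde-1, against 0.10 and 7.32 in N2 (limma, log2 difference 5.16, SE 0.70, adjusted p = 0.0049). All of that window's N2 signal was in the generation 4 library.

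At the right end of chromosome V, regions Vk, from 20298001 to 20301000, and Vl, from 20306001 to 20307000, lay 5 windows apart. Region Vk read 31.4 and 37.4 in hrde-1, against 0.333 and 0.10 in N2, from 159 reads in hrde-1 and 1 in N2 (ratio 159, 95% counting interval 28.2 to 6334). Its GRTS window is the first, and the highest window was the second, which has no mark. Region Vl, without a mark, read 30.2 and 33.5 in hrde-1 and held no N2 read, at least 16.3-fold higher.

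A further 6 single GRTS windows rose, and 5 of them had no N2 read. Region Ia, on chromosome I from 2634001, carries both marks and read 54.9 and 49.6 in hrde-1, at least 26.7-fold higher. Region Vj, on V from 18440001, read 35.7 and 31.0 in hrde-1, at least 17.1-fold higher. Region IVd, on IV from 16317001, read 26.1 and 18.7 in hrde-1, at least 11.4-fold higher. These 3 were far above the N2 floor in both generations.

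The other 3 were nearer the limit of the test. Region IIIa, on III from 13240001, read 16.5 and 12.5 in hrde-1 and had no N2 read (limma, log2 difference 3.80, SE 0.65, adjusted p = 0.036). Region Va, on V from 5185001, read 12.4 and 18.7 in hrde-1 and had no N2 read (limma, log2 difference 3.88, SE 0.68, adjusted p = 0.0463). Region Vb, 4 windows further on, read 16.5 and 23.6 in hrde-1, against 0.10 and 1.30 in N2 (limma, log2 difference 3.71, SE 0.59, adjusted p = 0.0201). Both Va and Vb lie in the longest run of GRTS windows, 18 marked windows among the 19 from 5182001 to 5201000. That run as a whole read 12.1 and 13.8 in hrde-1, against 1.44 and 1.81 in N2, and only these 2 of its windows passed the test.

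Region IVc, on IV from 8397001, was the highest region in hrde-1 and the only one with GRH and no GRTS. It read 145.2 and 141.2 in hrde-1, against 9.87 and 8.52 in N2, a mean of 143.2 ± 2.82 and 9.20 ± 0.955 (SD, n = 2 each). Reads numbered 220 in hrde-1 and 14 in N2, a ratio of 15.7 (limma, log2 difference 3.83, SE 0.44, adjusted p = 0.00116). It also had the largest rise in mean coverage of any tested window whose groups did not overlap. Unlike most of the regions, it was plainly covered in N2.

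The 9 regions without a mark reached levels within the range of the marked ones. They held 12 called windows, and their mean hrde-1 coverage ran from 24.2 to 56.0 with a median of 31.2, against 14.5 to 143.2 with a median of 37.4 in the 13 marked regions. Of the 16 unmarked called windows, some of which lie in marked regions, 6 lay within 10 windows of a GRTS window, 4 of them directly beside it, and 10 lay further away. Neither difference was tested.

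Region Xa, on chromosome X from 16833001 to 16836000, was the longest region without a mark, with 3 called windows. It read 27.7 and 26.9 in hrde-1, against 0.333 and 0.50 in N2, from 126 reads in hrde-1 and 1 in N2 (ratio 126, 95% counting interval 22.3 to 5027). Region Vi, on V from 18119001 to 18122000, read 21.5 and 31.5 in hrde-1, against 0.10 and 0.90 in N2. Both were near silent in N2 whole RNA.

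Of the remaining unmarked regions, Vf and Vg were the highest in hrde-1. Region Vf, on V from 15579001, read 48.7 and 63.2 in hrde-1, against 4.29 and 2.51 in N2. Region Vg, on V from 17156001, read 35.7 and 50.8 in hrde-1, against 0.10 and 1.30 in N2. The spread of both between hrde-1 generations, an SD of 10.3 and 10.7, was small beside their distance from N2.

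Region Ib, on I from 13853001, read 41.2 and 33.5 in hrde-1, against 1.5 and 0.10 in N2. Region Ve, on V from 15165001, read 28.8 and 33.5 in hrde-1, against 1.5 and 1.30 in N2. Region IIa, on II from 582001, read 27.5 and 24.9 in hrde-1, against 0.10 and 1.30 in N2. All 3 rested on 1 or 2 N2 reads. Region IVb, on IV from 1980001, read 23.4 and 24.9 in hrde-1 and had no N2 read, at least 12.3-fold higher.

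No region kept a call without each single library. All 22 lost theirs without the generation 4 hrde-1 library (limma, adjusted p of 0.0576 or more), and Ia, IVa, Vd, Vh and Vk kept one when each of the other 11 libraries was left out in turn (limma, adjusted p of at most 0.0483). Leaving out a library leaves that group 1 library, which is then assumed to vary like the others.

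Between the generations, hrde-1 coverage of the regions showed no common direction. The ratio of generation 4 to generation 3 lay between 0.715 and 1.5, with a median of 1.02, and was above 1 in 11 regions and below 1 in 11. With 1 library a generation this has no replicate check.

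Around the regions, coverage fell off within a few windows. Over all tested windows, 17.2% had both hrde-1 libraries above both N2 libraries and 17% had both below. In the 44 windows next to a region, mean coverage was 9.83 and 9.43 in hrde-1, against 2.32 and 2.85 in N2, and in 33 of them both hrde-1 libraries lay above both N2 libraries. At 5 windows' distance the means were 4.07 and 4.57 in hrde-1, against 2.18 and 3.16 in N2, and 14 of 44 windows did not overlap in that direction. Of the 44 adjacent windows, 18 carry GRTS themselves. The flanks include windows below the filter, and some are shared between neighbouring regions. Their counts are therefore not on the same set as the shares over all tested windows.

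Windows with reads in only 1 genotype were found on both sides. Of the tested windows, 1045 had no N2 read and 637 had no hrde-1 read. Higher minimums were set after the values were seen. With at least 5 in both libraries of 1 genotype and no read in either library of the other, there were 66 windows in hrde-1 and 0 in N2. With at least 10 there were 28 and 0, and with at least 20 there were 20 and 0. Of the 66 windows, 33 carry GRTS and 31 have no mark, 50 lie within 10 windows of a GRTS window, and 24 were among the called windows. No test was made of these counts.

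GRTS windows as a whole were low in N2 and moderately covered in hrde-1. Over all 191, the median was 4.71 and 5.05 in hrde-1 and the floor of 0.1 in both N2 libraries. No reads were seen in 18 and 15 of the 191 windows in hrde-1, against 119 and 100 in N2. Their share of the library was 0.232% and 0.238% in hrde-1, against 0.0205% and 0.0184% in N2. The highest GRTS window had 109.6 and 95.4 in hrde-1, against 8.48 and 3.71 in N2, and was the first window of region Vc.

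Of the 191 GRTS windows, 160 passed the filter on low values, many of them only through their hrde-1 reads, so their direction is partly set by the filter. Among the 160, 25 rose (15.6%, against 0.0997% of all tested windows), 0 fell, and 145 had both hrde-1 libraries above both N2 libraries (90.6%, against 17.2%). Over all 191 GRTS windows, tested or not, mean coverage was 11.4 ± 0.416 in hrde-1 and 1.06 ± 0.034 in N2 (SD, n = 2 each). The median log2 difference of the 160 tested was 2.03 (interquartile range 1.42 to 3.10), beside 0.00 over all tested windows. Taken as runs, the 191 windows form 80 blocks, of which 11 held a called window.

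Not every GRTS window was higher in hrde-1. The window of V from 16102001, among the 5 GRTS windows with the highest coverage, read 37.1 and 49.6 in hrde-1, against 35.0 and 21.8 in N2, and did not pass the test (limma, log2 difference 0.62, SE 0.32, adjusted p = 1.00). Among the 160 tested, 2 had a difference at or below 0. The window of I from 4456001 read 12.1 and 2.88 in hrde-1, against 12.0 and 12.1 in N2. The window of V from 12646001 held about 1 read in hrde-1 and 3 in N2. The single GRTS window of II from 12283001 read 56.2 and 62.1 in hrde-1, against 8.48 and 1.30 in N2, and just missed the threshold (limma, log2 difference 3.69, SE 0.67, adjusted p = 0.0633).

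GRH windows differed less. Over all 215, the median was 4.78 and 5.26 in hrde-1, against 1.5 and 2.51 in N2. Of the 174 that passed the filter, 4 rose (2.30%, against 0.0997% of all tested windows) and 0 fell. Both hrde-1 libraries lay above both N2 libraries in 89 (51.1%, against 17.2%) and below them in 5 (2.87%, against 17%). Of the 174, 17 had no N2 read and passed the filter only through hrde-1 reads, so the direction is partly set by it. Without the windows that also carry GRTS, 71 of 151 lay above (47.0%) and 5 below (3.31%). The 151 with GRH and no GRTS had a median log2 difference of 0.57 (interquartile range 0.12 to 1.36), and 2 of them rose. Among the 5 GRH windows with the highest coverage, II from 13186001 read 67.2 and 45.9 in hrde-1, against 62.9 and 55.5 in N2. The window of I from 11931001 read 59.0 and 49.6 in hrde-1, against 58.7 and 33.8 in N2, and I from 1838001 read 39.8 and 50.8 in hrde-1, against 57.4 and 49.4 in N2. The genotypes overlapped in all 3.

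Among tested windows, differences shrank with distance from GRTS. A window with no N2 read passed the filter only through its hrde-1 reads. That held for 31 of 103 windows directly beside GRTS, 47 of 562 at 2 to 10 windows and 911 of 42309 beyond. The direction near GRTS is thus partly set by the filter. Windows directly beside a GRTS window had a median log2 difference of 1.40. Of these, 67 of 103 did not overlap with hrde-1 higher (65.0%, against 17.2% of all tested windows). At 2 to 10 windows the median was 0.19, and 174 of 562 (31.0%) did not overlap in that direction. Beyond 10 windows the median was 0.00, and 7053 of 42309 did not overlap with hrde-1 higher and 7256 with hrde-1 lower. Called higher were 5, 2 and 11 windows in these 3 classes (4.85%, 0.356% and 0.0260%, against 0.0997% of all tested windows).

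**Figure D4:**
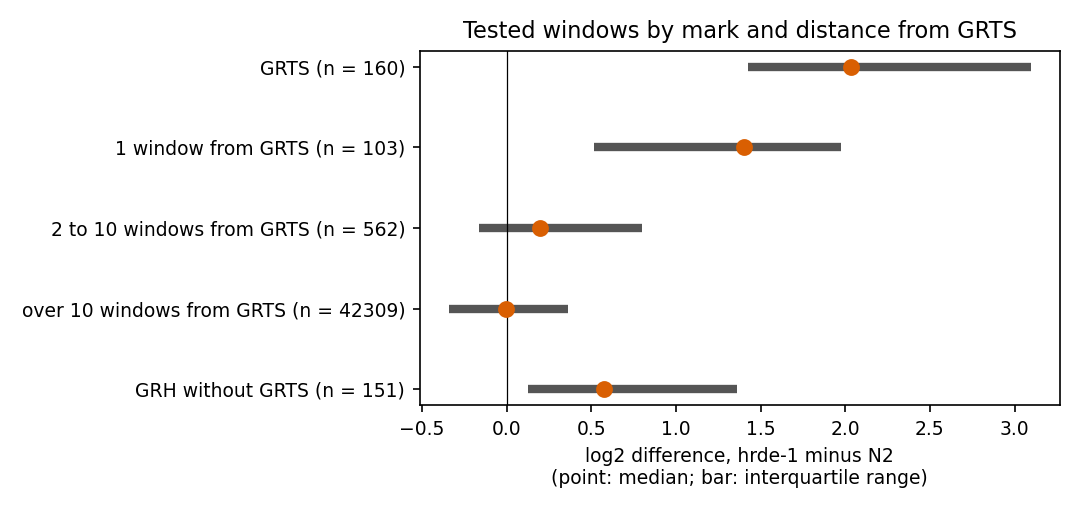
Median (points) and interquartile range (bars) of the log2 difference, hrde-1 minus N2, over the tested windows of each class. Windows without N2 reads passed the filter only through hrde-1 reads, so medians in GRTS, near GRTS and in GRH are partly set by it. The median is 2.03 in GRTS windows, 1.40 beside them, 0.19 at 2 to 10 windows and 0.00 beyond, and 0.57 in windows with GRH and no GRTS, which are also counted in the distance classes.

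At a larger but untested difference the same side stood out, a limit chosen after the values were seen. Without overlap and at least 4-fold on the log2 scale, 335 windows were higher in hrde-1 (percent called 0.777) and 70 were lower (percent called 0.162). Of these, 278 and 69 had a mean under 10, with a median of 11 and 7 reads in the genotype that was higher. The direction was the same without overlap in nuclear RNA in 226 of the 335 and 18 of the 70. In cytoplasmic RNA it was the same in 174 and 8. Of the 160 tested GRTS windows, 83 were in the higher class and 0 in the lower. Of these 160, 56 had no N2 read and passed the filter only through hrde-1 reads. Those 56 could not fall in the lower class, so this count is partly set by the filter. Among unmarked windows over 10 windows from GRTS with a mean of 10 or more, 22 of 16653 were higher and 1 was lower. The 4-fold limit depends on the pseudocount: with 0.1 the counts were 2003 higher and 1171 lower, and with 10 they were 26 and 0.

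By chromosome, the X differed a little from the autosomes. Of its 6121 tested windows, 20.7% did not overlap with hrde-1 higher and 13.7% with hrde-1 lower. On chromosome III the shares were 15.3% and 19.4%. The median log2 difference was 0.09 on X and -0.05 on III, and between -0.02 and 0.01 on the others. The X held 11.9% and 11.6% of library coverage in hrde-1, against 11.3% and 11.2% in N2. Of the 43 called windows, 36 lay in the outer parts of their chromosome, meaning the first and last of 3 equal lengths, which hold 27550 of the 43134 tested windows. None of these regional differences was tested.

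Normalized coverage of abundant RNA was nearly the same in both genotypes. Of 1441 windows with a mean of 100 or more, 98.96% differed by less than 1.5-fold, 0 rose and 1 fell (limma). In these windows the median absolute log2 difference between genotypes was 0.13 in generation 3 and 0.14 in generation 4. Between generations it was 0.14 within hrde-1 and 0.16 within N2, so genotypes differed no more than generations did. In windows with a mean of 1 to under 10 the same 4 values were 0.69, 0.63, 0.71 and 0.75, and only 57.5% of those windows lay within 1.5-fold. Those windows held a median of 4 reads over both libraries of a genotype.

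The 5 windows with the highest coverage were 4 neighbours on IV from 8262001 to 8266000 and the X window from 5105001. The highest of them, IV from 8264001, read 3069 and 3232 in hrde-1, against 3012 and 3376 in N2 (limma, log2 difference -0.02, SE 0.12, adjusted p = 1.00). After region IVc, the largest rises in coverage without overlap were in such abundant windows. The window of III from 5031001 read 1878 and 1967 in hrde-1, against 1779 and 1809 in N2 (limma, log2 difference 0.10, SE 0.12). Those of X from 5103001, III from 5211001 and IV from 8262001 had log2 differences of 0.08, 0.09 and 0.05, and none of the 4 passed the test (limma, adjusted p = 1.00).

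A single window fell in hrde-1, and it lies on chromosome III. The window from 4175001 to 4176000, which has no mark, read 79.5 and 66.9 in hrde-1, against 252.8 and 226.4 in N2, a mean of 73.2 ± 8.88 and 239.6 ± 18.7 (SD, n = 2 each), from 112 reads in hrde-1 and 369 in N2 (limma, log2 difference -1.70, SE 0.24, adjusted p = 0.0071). In nuclear RNA the same window read 88.8 and 74.1 in hrde-1, against 217.1 and 233.6 in N2, and fell too (limma, adjusted p = 0.0157), 1 of 3 windows lower there (percent called 0.00696). The call in whole RNA was lost when any 1 of the 4 whole-animal libraries was left out (limma, adjusted p up to 0.268), with no filter (limma, adjusted p = 0.0635) and with no trend (limma, adjusted p = 0.225).

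Its neighbours to the left were also lower without passing the test. The window from 4172001 read 65.8 and 74.4 in hrde-1, against 111.8 and 106.0 in N2. The window from 4173001 read 135.6 and 115.2 in hrde-1, against 276.6 and 244.4 in N2 (limma, log2 difference -1.05, SE 0.20, adjusted p = 0.0677). The window from 4174001 read 111.0 and 81.8 in hrde-1, against 208.1 and 196.3 in N2 (limma, log2 difference -1.08, SE 0.22, adjusted p = 0.129). Past the called window coverage was low in both genotypes. The window from 4176001 read 11.1 and 8.76 in hrde-1, against 22.4 and 12.1 in N2, and that from 4177001 read 12.4 and 13.7 in hrde-1, against 19.7 and 10.9 in N2. Further out values overlapped or lay close. The window from 4171001 read 45.3 and 52.1 in hrde-1, against 51.8 and 59.1 in N2, and that from 4178001 read 26.1 and 24.9 in hrde-1, against 32.2 and 26.6 in N2. Whether the mutated gene lies in this stretch was not analysed here.

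A second stretch, on chromosome II, was lower in whole RNA but missed the threshold. Its window from 8788001 read 83.6 and 81.8 in hrde-1, against 202.6 and 186.6 in N2 (limma, log2 difference -1.22, SE 0.22, adjusted p = 0.0651). In cytoplasmic RNA the same window read 48.7 and 41.6 in hrde-1, against 242.9 and 170.1 in N2, and fell (limma, adjusted p = 0.0004), 1 of 28 windows lower there (percent called 0.0649). The window from 8789001 read 34.3 and 54.6 in hrde-1, against 130.0 and 125.3 in N2 (limma, adjusted p = 0.351). The windows from 4175001 and 8788001 were picked for the lowest adjusted p among windows lower in hrde-1.

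Some windows of low coverage were lower by more on the log2 scale, without passing the test. The window of III from 4270001 read 2.84 and 2.57 in hrde-1, against 22.4 and 21.8 in N2 (limma, log2 difference -2.64, SE 0.53, adjusted p = 0.129). Its neighbour from 4271001 read 1.47 and 0.10 in hrde-1, against 14.1 and 10.9 in N2 (limma, log2 difference -3.02, adjusted p = 0.209). The window of I from 12894001 read 1.47 and 0.10 in hrde-1, against 8.48 and 13.3 in N2 (limma, log2 difference -2.82, adjusted p = 0.174). In each of these 3 the genotypes did not overlap.

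The largest decreases in coverage also included small relative differences in abundant windows. The window of X from 3404001 read 1365 and 1312 in hrde-1, against 1365 and 1688 in N2. That of X from 7731001 read 1259 and 1126 in hrde-1, against 1387 and 1329 in N2. The window of V from 14686001 read 977.4 and 972.9 in hrde-1, against 1049 and 1166 in N2. None of these X and V windows passed the test (limma, adjusted p = 1.00, log2 differences of -0.18 to -0.19).

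Nuclear and cytoplasmic RNA, whose levels did not enter the whole RNA difference but shared its estimate of the spread, showed the same direction in all 43 windows. Each of the 43 was above N2 in both nuclear and both cytoplasmic libraries, where 12.9% and 23.7% of all tested windows were so. In nuclear RNA 41 of them rose, of 112 windows in all (percent called 0.26), and in cytoplasmic RNA 37 rose, of 366 in all (percent called 0.849). In all 3 kinds of RNA 36 rose. Cytoplasmic depth differed by genotype, with 520746 and 361862 read equivalents in hrde-1, against 191276 and 263410 in N2. In N2 cytoplasmic RNA 73.0% and 69.9% of all windows were at the floor, against 61.9% and 65.4% in hrde-1. The cytoplasmic comparison is therefore not matched for depth. Nuclear depth was 487460 and 709528 in hrde-1, against 802294 and 907993 in N2. Whether whole RNA and fractions were taken from the same animals is not stated in the labels.

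The genotype difference in whole RNA was not shown to differ from that in either fraction. The test of the difference itself called 0 windows against nuclear RNA (limma, lowest adjusted p = 1.00, with 1309 at an unadjusted p under 0.05) and 0 against cytoplasmic RNA (limma, lowest adjusted p = 0.0758, with 4452). Both depended on the settings. With no filter they called 1206 and 313 windows, and the cytoplasmic count was 2071 without the generation 4 N2 cytoplasmic library. Of 71 windows called higher in nuclear and not in whole RNA, 70 had both hrde-1 libraries above both N2 libraries in whole RNA too, with a median whole RNA log2 difference of 2.27. Of 329 called higher in cytoplasmic and not in whole RNA, 101 did, with a median of 0.10. Over all tested windows the share was 17.2%.

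The regions were not spread alike over the fractions of hrde-1 animals. Since the authors normalized the coverage, a ratio between fractions compares shares of libraries and not amounts per cell. Nuclear over whole coverage ran from 0.533 to 4.77 with a median of 1.28, and cytoplasmic over whole coverage from 0.194 to 1.38 with a median of 0.769. In 16 of the 22 regions the nuclear mean exceeded the whole mean, and in 7 the cytoplasmic mean did.

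Regions Va, Vb and IVa leaned most towards the nucleus. Region Va read 73.4 and 74.1 in nuclear, 12.4 and 18.7 in whole and 3.84 and 4.71 in cytoplasmic RNA of hrde-1. Region IVa read 112.7 and 128.4 in nuclear, 34.3 and 40.6 in whole and 8.41 and 8.80 in cytoplasmic RNA of hrde-1. In both, every hrde-1 nuclear library lay above every hrde-1 whole library and every hrde-1 whole library above every hrde-1 cytoplasmic one. In N2 nuclear RNA, region Va read 3.64 and 15.9 and region IVa read 1.28 and 1.04.

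At the other end, Vf, IVc and IIb were lower in nuclear than in whole RNA. Region Vf read 29.0 and 30.7 in nuclear, 48.7 and 63.2 in whole and 59.9 and 31.2 in cytoplasmic RNA of hrde-1. Its N2 values were 16.02 and 10.6 in nuclear RNA and 4.29 and 2.51 in whole RNA. Of the 22 regions, Vf and Va had no called window in the nuclear comparison (limma, adjusted p = 1.00 for Vf and 0.123 for Va). Regions Va and Vi had none in the cytoplasmic comparison (limma, adjusted p = 0.117 for Va and 0.0754 for Vi). Region Vh had more in the cytoplasm, with 42.2 and 46.0 in nuclear, 54.4 and 52.9 in whole and 89.2 and 59.2 in cytoplasmic RNA of hrde-1. The order of the fractions therefore differed between regions that all rose in whole RNA.

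**Figure D5:**
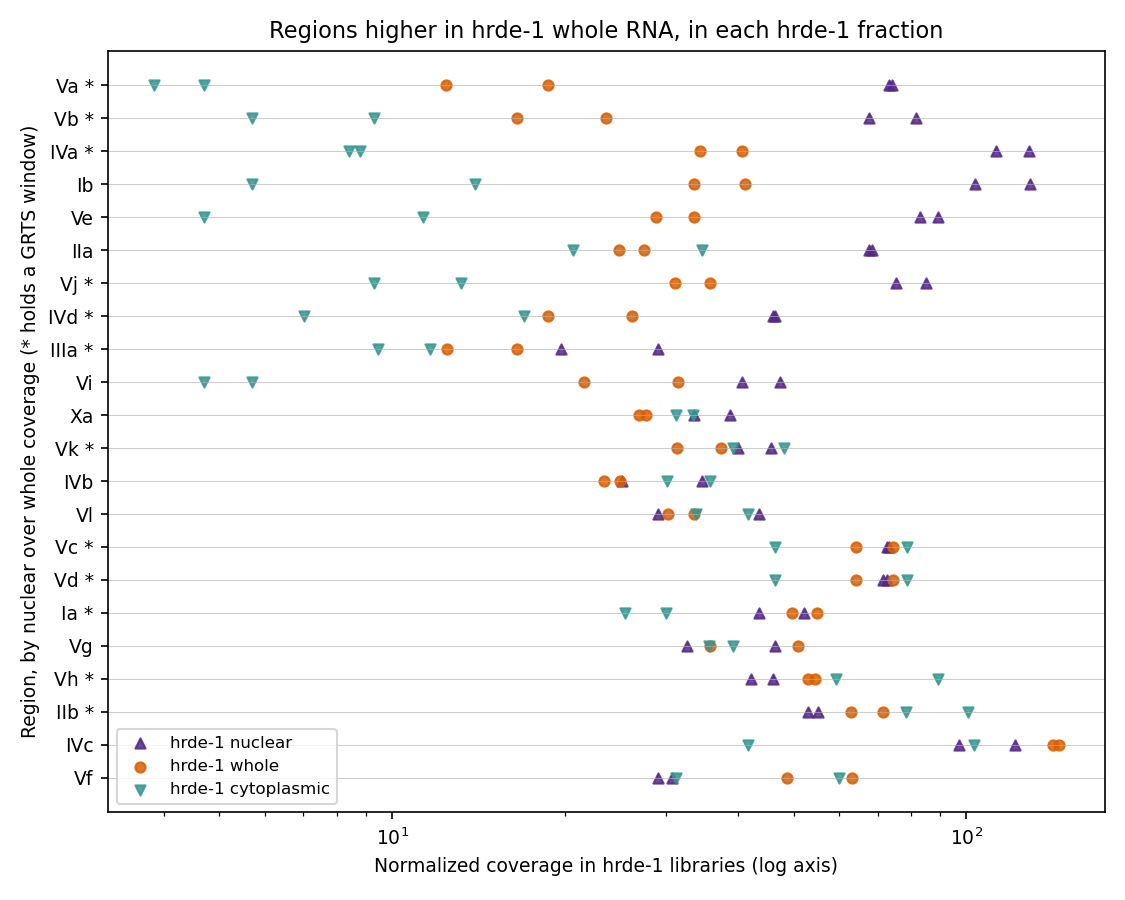
Mean coverage of the 22 regions in each hrde-1 library on a log axis, ordered from the highest ratio of nuclear to whole coverage (4.77, top) to the lowest (0.533, bottom). In the upper rows the nuclear points lie above the whole points and the cytoplasmic points below them, and in the lowest rows the nuclear points lie below the whole points.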

How the data were processed

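RNA coverage was measured in 12 libraries, 2 in each of 6 groups of genotype and fraction. The deposited values are the authors' normalized coverage, a signal per window of 1000 bases that is never negative and has a floor of 0.1. Bowtie 0.12.7 is named in the submitters' processing notes. No source used here names the build, the strand, the scale of the coverage or how reads with several matches were placed. Between 77.8% and 82.5% of the whole-animal values under 40 were the floor plus a whole number of steps of 1.20 to 1.40 (tolerance 0.0065), and 1 step was taken as the value of 1 read. These read equivalents set the counting intervals (95%) and bounds (3 reads over the group), which cover counting error only. Coverage is no read count, and a count model was not applied.

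Windows with a mean of at least 1 over the 4 whole-animal libraries were tested on log2(coverage + 1) with the functions lmFit and eBayes (trend on) of limma 3.58.1 under R 4.3.3. Tests were two-sided, and p-values were adjusted by Benjamini and Hochberg's method over all 43134 windows, with 0.05 as the threshold. The fit held all 12 libraries and left 6 residual degrees of freedom. On this scale log2 differences understate the change of low windows. Just inside the minimum, IV from 8402001 had a mean of 1, and just outside it, III from 1903001 had 0.998. The script was tested on simulated data. Called windows separated by no more than 1 other window made 1 region, and a region's p is the lowest of its windows. An SD is over n = 2 libraries. Regions, the largest rises and falls without overlap, and the windows with the highest coverage, overall and by mark, were named by rule. Further windows (neighbours of the lower windows, low windows among those with the lowest adjusted p of a decrease, GRTS windows at or below 0 and II from 12283001) were chosen after their values were seen. The windows and lists were chosen with earlier results of these data known. The labels state no pairing of libraries beyond the generation number, so the block is only an alternative. Chromosome V ends at 20920000 in the table and at or past 20922732 in WBcel235. Chromosome I ends at 15060000 in the table and at or past 15072426 in WBcel235. On II, III, IV and X the annotation does not run past the table. That annotation was not used for any chromosome.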

Additional observations from a re-analysis of the deposited data

How the results depend on the processing

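The 43 windows higher and 1 lower in hrde-1 were recounted under other settings. They became 21 and 1 with a pseudocount of 0.1 (14 GRTS, 2 GRH), 50 and 2 with a pseudocount of 10, 209 and 120 with no filter, 41 and 3 with a minimum mean of 10, and 55 and 3 with quantile normalization (8 GRH). With no trend they were 65 and 0 (7 GRH, 2366 windows at an unadjusted p under 0.05). The 4 whole-animal libraries alone gave 67 and 6 (10 GRH), and 0 of each count with no trend or with the minimum set over all 12 libraries, both added after the data were seen. Why these fits differ was not tested. Median scaling gave 42 and 1, and the minimum over all 12 libraries in the 12-library fit 43 and 1. The replicate block gave 40 and 3. By their labels, same-numbered libraries share a generation. Across 43134 windows, the generation deviations of hrde-1 and N2 whole libraries correlated at 0.045. In windows with a mean of 100 or more, r between genotypes was 0.975 in generation 3 and 0.964 in generation 4. Across generations r between genotypes was 0.945 and 0.959, and within genotypes 0.970 for hrde-1 and 0.955 for N2. A shared effect of generation was not tested. With single libraries left out, the counts ran from 0 to 68 higher, 0 to 6 lower, 0 to 36 GRTS and 0 to 10 GRH. Higher windows numbered 18 and 17 with N2 whole RNA of generation 3 or 4 left out, 28 with hrde-1 nuclear RNA of either generation left out, and 67 and 68 with N2 cytoplasmic RNA of generation 3 or 4 left out. The test of whole against nuclear RNA called 0 throughout, except 1206 with no filter. The test of whole against cytoplasmic RNA called 1 with a pseudocount of 0.1, 313 with no filter, and 0 to 2071 with single libraries left out. The counts of 4-fold differences, 335 and 70, were 2003 and 1171 with a pseudocount of 0.1 and 26 and 0 with 10. Among named windows, none of them called, the sign turned in 11 cases and the value became 0 in 1. With quantile normalization III from 5031001 gave 0.00, IV from 8264001 gave 0.0181 and X from 5105001 gave 0.0506. With single libraries left out, the log2 difference ran from -0.117 to 0.662 at I from 11931001, -0.358 to 0.182 at II from 13186001 and -0.0807 to 0.0633 at X from 5105001. On IV it ran from -0.0562 to 0.0501 at 8263001, -0.1003 to 0.0643 at 8264001 and -0.1105 to 0.0188 at 8265001. Depth limits windows of a few reads: those with a mean under 10 held a median of 4 reads per genotype.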
